A study of Mus musculus with 9 samples.

Results

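A set of 10 mature microRNAs (miRNAs) encoded by a pair of related gene clusters, miR-17~92 and miR-106b~25, were followed in the vesicles of macrophages exposed to silica. They were taken by name from the rows of known mature miRNAs, 7 from miR-17~92 and 3 from miR-106b~25. All 10 had counts in every one of the 9 libraries, among 1101 mature miRNAs counted in at least 1 library. RAW264.7 is a virus-transformed mouse macrophage line, and all 3 groups came from this 1 line, kept in medium with fetal bovine serum. One group of 3 libraries was from untreated cells, another from cells given silica for 24 h and the last from cells given silica for 48 h. Exosomes, the small vesicles that cells shed, were pelleted from the medium by ultracentrifugation, and their small RNA was sequenced. No source used here gives the silica dose, the culture time of the untreated cells or any removal of serum vesicles. The 3 repetitions of a group are described as independent without naming separate cultures, so the tests below measure the spread between these libraries.

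A miRNA is cut from a hairpin precursor, and the strand taken up by an Argonaute protein pairs with messenger RNAs mainly through bases 2 to 8 from its 5′ end, the seed. The miR-17~92 transcript is made from the host gene Mir17hg, is switched on by Myc and E2F factors, and is known for promoting proliferation and for restraining the pro-apoptotic Bim. In myeloid cells the miR-17 and miR-20a members are known to fall as monocytes differentiate, and among their targets are Runx1 and Sirpa. The miR-106b~25 hairpins lie within Mcm7, a gene of the replicative helicase, and share targets such as the cell-cycle inhibitor p21.

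The 6 hairpins of miR-17~92 lie on the plus strand of chromosome 14 at chr14:115043671-115044506 (GRCm38), 836 bases in an exon of the long non-coding RNA Mir17hg. The 3 hairpins of miR-106b~25 lie on the minus strand at chr5:138165321-138165818, 498 bases in introns of Mcm7, where the miR-93 and miR-25 hairpins also overlap an exon of a transcript that retains the intron. The mature sequences of all 10 were found in the RefSeq table for GRCm38.p6 and are shown because the members differ by few bases and fall into seed families that cut across the clusters. They are written 5′ to 3′ with the seed in capitals, family by family.
mmu-miR-17-5p: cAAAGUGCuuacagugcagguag
mmu-miR-20a-5p: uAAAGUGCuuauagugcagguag
mmu-miR-106b-5p: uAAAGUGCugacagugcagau
mmu-miR-93-5p: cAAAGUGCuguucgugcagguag
mmu-miR-18a-5p: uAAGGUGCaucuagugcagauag
mmu-miR-19a-3p: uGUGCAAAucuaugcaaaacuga
mmu-miR-19b-3p: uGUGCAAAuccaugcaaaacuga
mmu-miR-92a-3p: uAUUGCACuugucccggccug
mmu-miR-25-3p: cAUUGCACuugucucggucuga
mmu-miR-17-3p: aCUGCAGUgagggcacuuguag
The first 4 share the seed AAAGUGC and form the miR-17 family, with 2 members from each cluster. miR-92a-3p and miR-25-3p share AUUGCAC and also come from different clusters. miR-19a-3p and miR-19b-3p differ at 1 of 23 bases, miR-17-5p and miR-20a-5p at 2 of 23, and miR-92a-3p and miR-25-3p at 3 of 21 aligned bases. No source used here says how reads that match more than 1 such miRNA were counted, so the split between these near copies is uncertain. G and C made up 34.8% of the bases of miR-19a-3p, 39.1% of miR-19b-3p and miR-20a-5p, 42.9% of miR-106b-5p, 43.5% of miR-18a-5p, 47.8% of miR-17-5p, 50% of miR-25-3p, 52.2% of miR-93-5p, 54.5% of miR-17-3p and 57.1% of miR-92a-3p.

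miR-19b-3p and miR-92a-3p each have a second hairpin in a paralogous cluster on the X chromosome, that of miR-106a, at chrX:52741838-52742066 on the minus strand, and their mature sequence cannot tell the hairpins apart. Of the 10 mature miRNAs that only the X-linked cluster makes, 4 were counted, with 84 counts over all 9 libraries, and none passed the filter on low counts. miR-19b-3p and miR-92a-3p together had 1372696 counts.

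The libraries held 2158418 to 8331451 counts of mature miRNA, 28.0% to 44.7% of the counted reads of all small RNA classes. Levels are given as CPM, the usual per-library scaling of counts, here over mature miRNA counts only and adjusted between libraries by edgeR's TMM method. A count of 3, close to the upper 95% limit for a count of 0, was worth 0.360 to 1.39 CPM before the TMM adjustment. This limit and the count intervals below cover counting error only. The 8 macrophage and myeloid markers summed to 71502 to 108549 CPM, nearly all of it from miR-146a-5p (mean 49713 CPM) and miR-21a-5p (37924), which other cell types also make. The more restricted miR-223-3p and miR-142a-3p averaged 126 and 74.2 CPM. The other markers of this list averaged 800 CPM (miR-155-5p), 697 (miR-342-3p), 88.7 (miR-142a-5p) and 0.50 (miR-511-3p). Of the 8 markers, 7 were counted in every library, while miR-511-3p had a median of 0 CPM over the 9 libraries. Marker sums for other sources were 1946 to 9644 CPM for serum, liver and red cells (6 miRNAs), 397 to 2222 for mesenchymal and endothelial cells (5), 77.2 to 198 for epithelium (7) and 70.4 to 234 for neurons and muscle (5). In the serum, liver and red cell list, miR-320-3p averaged 3805 CPM, miR-122-5p 1154, miR-451a 1016, miR-486a-5p 5.13, miR-486b-5p 4.65 and miR-144-3p 0.57. Thus miR-122-5p and miR-451a averaged above every myeloid marker except miR-146a-5p and miR-21a-5p. Vesicle preparations are bulk samples, so fewer vesicles of one kind and less of a miRNA per vesicle cannot be told apart.

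The members of one cluster stood at very different levels. miR-92a-3p averaged 30259 CPM over the 9 libraries, the 13th highest of the 453 mature miRNAs that passed the filter, followed by miR-93-5p at 10533 CPM and miR-25-3p at 9330 CPM. miR-19b-3p averaged 2083 CPM, miR-20a-5p 384, miR-17-5p 232, miR-18a-5p 219.8, miR-17-3p 177, miR-106b-5p 36.5 and miR-19a-3p 26.6 CPM. Their medians were lower, at 797, 176, 121, 73.6, 134, 21.0 and 9.13 CPM in turn. By median miR-17-3p stood above miR-17-5p and miR-18a-5p. The members are 21 to 23 bases long, so no correction for length was made. Nor was any made for how well each sequence is captured in a library, so different miRNAs are compared by counts only. Down the order of means, miR-92a-3p exceeded miR-93-5p, miR-19b-3p exceeded miR-20a-5p, and miR-17-3p exceeded miR-106b-5p in all 9 libraries. miR-93-5p exceeded miR-25-3p in only 6 of 9, miR-18a-5p exceeded miR-17-3p in 3 of 9 and miR-106b-5p exceeded miR-19a-3p in 5 of 9, so these neighbours were not separated beyond their spread. For miR-25-3p over miR-19b-3p and miR-20a-5p over miR-17-5p the order held in 8 of 9 libraries, and for miR-17-5p over miR-18a-5p in 7.

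**Figure D1:**
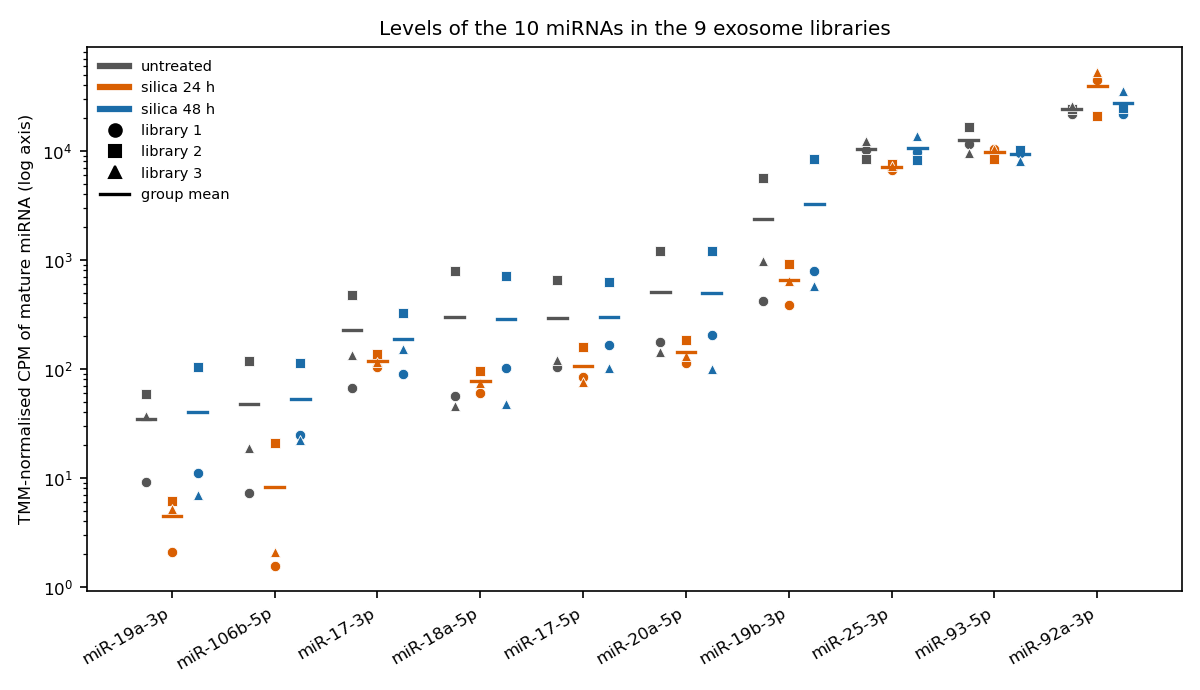
Level of each member in each library, as TMM-scaled CPM of mature miRNA on a log axis. Colours mark untreated cells and cells given silica for 24 h or 48 h, symbols mark libraries 1, 2 and 3 of a group and bars are group means (n = 3). The libraries of miR-25-3p, miR-93-5p and miR-92a-3p lie close together at the right, while the other 7 members each reach their highest values in untreated library 2 or 48 h library 2.

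miR-92a-3p, a strand known as the most abundant product of miR-17~92 in many cells and for acting on endothelial cells, was measured at 21966, 24249 and 25657 CPM in untreated libraries 1, 2 and 3. It was measured at 44369, 20684 and 53144 CPM at 24 h and at 21721, 24913 and 35628 CPM at 48 h. The 24 h libraries 1 and 3 were the highest of the 9, but 24 h library 2 was the lowest, so the groups overlapped. The markers of serum, liver and red cells stood in the same order at 24 h, with sums of 7711, 5578 and 9644 CPM, and miR-451a, a red-cell miRNA that bypasses Dicer, was measured at 1605, 872 and 3380 CPM. In untreated libraries those sums were 5361, 5084 and 5721 CPM and miR-451a stood at 629.8, 148 and 556 CPM. At 48 h the sums were 1946, 6356 and 6473 CPM, an order not shared by miR-451a at 762, 786 and 409 CPM. In the 48 h sums miR-320-3p, a miRNA of many tissues, accounted for 219, 5157 and 4970 CPM. The other markers of this list were mixed at 24 h. In the order of miR-451a were miR-122-5p at 1951, 1253 and 2257 CPM and miR-486a-5p at 5.17, 5.14 and 7.26. In other orders were miR-320-3p at 4131, 3443 and 3999 CPM, miR-486b-5p at 17.8, 4.14 and 0.52, and miR-144-3p at 0, 0.83 and 0. The part of these RNAs in the level of miR-92a-3p was not tested.

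miR-93-5p, the more abundant of the miR-17 family members of miR-106b~25, was measured at 11568, 16572 and 9521 CPM in untreated libraries, 10489.7, 8349.5 and 10380.5 at 24 h, and 9578, 10233 and 8109 at 48 h. Its highest value was 2.04 times its lowest, the narrowest range of the 10. miR-25-3p, which has the miR-92a seed, stood at 10165, 8382 and 12332 CPM in untreated libraries, 6595, 7622 and 7251 at 24 h and 9829, 8254 and 13537 at 48 h. All 3 libraries at 24 h lay below the 3 untreated and below the 3 at 48 h.

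miR-19b-3p, which with miR-19a-3p is known as the part of the cluster that drives lymphoma, was measured at 421, 5640 and 976 CPM in untreated libraries. It stood at 386, 913 and 645 CPM at 24 h and at 797, 8400 and 570 CPM at 48 h. Untreated library 2 and 48 h library 2 were far above the other 7, which overlapped between groups. miR-19a-3p was measured at 9.13, 58.9 and 36.6 CPM in untreated libraries, 2.07, 6.13 and 5.18 at 24 h, and 11.0, 103 and 6.91 at 48 h. All 24 h values lay below all others, on 8, 37 and 10 counts. The exact 95% Poisson interval was 3.45 to 15.8 for the 8 counts and 4.80 to 18.4 for the 10.

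miR-17-5p, the founder of its seed family, was measured at 103, 659 and 121 CPM in untreated libraries, 83.5, 157 and 75.2 at 24 h and 165, 623 and 101 at 48 h. miR-20a-5p, its closest relative in the cluster, stood at 176, 1208 and 142 CPM in untreated libraries, 114, 185 and 131 at 24 h and 203, 1196 and 99.8 at 48 h. miR-18a-5p, whose seed differs from that of miR-17-5p, stood at 56.1, 787 and 45.4 CPM in untreated libraries, 60.2, 95.6 and 73.6 at 24 h and 102, 711 and 47.5 at 48 h. In all 3 the untreated and 48 h groups each held 1 high library, number 2, and the groups overlapped.

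miR-17-3p, the other strand of the miR-17 hairpin, was measured at 66.9, 473 and 134 CPM in untreated libraries, 103, 137 and 115 at 24 h and 89.3, 322 and 150 at 48 h. miR-106b-5p, the least abundant of the 3 members from its cluster, was measured at 7.26, 118 and 18.8 CPM in untreated libraries, 1.55, 21.0 and 2.07 at 24 h and 24.6, 113 and 22.1 at 48 h. Its 24 h values in libraries 1 and 3 rested on 6 and 4 counts, with exact 95% Poisson intervals of 2.20 to 13.1 and 1.09 to 10.2. All 3 of its 48 h values lay above all 3 at 24 h, and number 2 was again the highest of each group.

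Library 2 was the highest of the 3 in every group for 7 of the 10 members, that is for each except miR-92a-3p, miR-93-5p and miR-25-3p. The same held for 18.8% of the 453 tested miRNAs. As a log2 difference from the mean of the other libraries of the group, library 2 stood at a median of 2.43 over the members among untreated libraries, 0.56 at 24 h and 2.26 at 48 h, beside 0.42, 0.03 and 0.25 over all tested miRNAs. miR-18a-5p was 3.95 higher in untreated library 2 on this log2 scale, and miR-19b-3p was 3.64 higher in 48 h library 2. The largest difference at 24 h was that of miR-106b-5p, at 3.29. The coefficient of variation of the members had a median of 102% among untreated libraries, 33.3% at 24 h and 96.6% at 48 h, beside 63.9%, 47.0% and 61.2% over all tested miRNAs. The separation of the 7 members from the 3 abundant ones was made after these values were seen.

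Across the 9 libraries, log2 CPM of the 7 less abundant members ran together, with Pearson r of 0.73 to 0.98 (median 0.86) over their 21 pairs. miR-92a-3p had r of -0.67 to -0.14 with those 7, although 6 of them come from its own cluster. miR-25-3p had r of -0.33 to 0.30 and miR-93-5p of 0.25 to 0.64 with the same 7. These coefficients are descriptions over 9 libraries that include the same high libraries and the same scaling. Outside the clusters, the miRNAs most like miR-17-5p by r over the 9 libraries were miR-30b-5p (0.988), miR-340-5p (0.984) and miR-142a-3p (0.973), where the median over all tested miRNAs was 0.15. miR-30b-5p stood at 127, 791 and 206 CPM in untreated libraries, 117, 240.0 and 112 at 24 h and 286, 774 and 141 at 48 h. Those most like miR-92a-3p were miR-1934-5p (0.908), miR-1930-5p (0.888) and miR-1b-5p (0.855), at means of only 4.02, 18.7 and 6.12 CPM, where the median over all tested miRNAs was -0.06.

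The 10 members took 3.53% to 6.75% of the mature miRNA counts of a library. miR-17~92 took 2.90% ± 0.86 (SD, n = 3) in untreated libraries, 3.90% ± 1.23 at 24 h and 3.23% ± 1.17 at 48 h. miR-106b~25 took 2.38% ± 0.47, 1.68% ± 0.12 and 1.96% ± 0.30 in the same order. miR-92a-3p alone made up 68.7% to 98.3% of the counts of miR-17~92, with the lowest shares in untreated library 2 (73.3%) and 48 h library 2 (68.7%). The ratio of miR-92a-3p to miR-17-5p counts ran from 36.8 in untreated library 2 to 707 in 24 h library 3, although the miR-17~92 transcript holds a hairpin of each. By seed family, miR-92a-3p and miR-25-3p made up 56.1% to 84.4% of the member counts, the miR-17 family 14.3% to 31.9% and the miR-19 pair 0.624% to 15.5%.

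**Figure D2:**
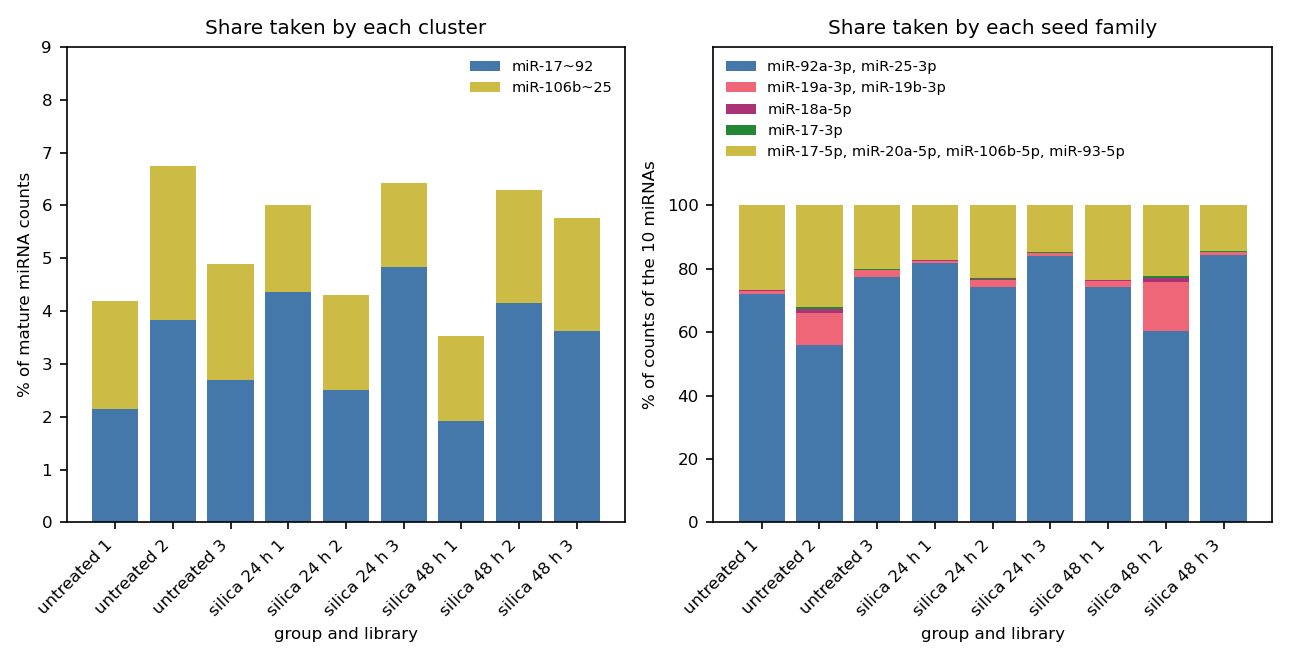
Share of mature miRNA counts taken by each cluster (left, percent) and share of the counts of the 10 members that falls to each seed family (right, percent), stacked for each of the 9 libraries. Both clusters together take 3.53% to 6.75%, the family of miR-92a-3p and miR-25-3p takes 56.1% to 84.4% of member counts, and the miR-19 family reaches 9.80% in untreated library 2 and 15.5% in 48 h library 2.

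The arm with most of the counts was the same in all 9 libraries for most hairpins. These are shares of counts in vesicles, so the choice of strand in the cells was not measured. The 5p arm made up 99.5% to 99.9% of the counts of the miR-93 hairpin and 97.7% to 100% of those of miR-20a. It made up at most 0.976% for miR-92a-1, 0.101% for miR-19a and 0.0575% for miR-19b-1, and 0.325% to 9.12% for miR-25. For miR-92a-1 and miR-19b-1 the 3p counts include any that came from the X-linked hairpins. Counts of miR-18a were mostly of its 5p arm, at 60.6% to 93.0%. miR-17 and miR-106b were mixed. The 5p arm of miR-17 ranged from 39.6% to 65.9% and was the larger in 5 of 9 libraries, and that of miR-106b ranged from 3.13% in 24 h library 1 to 52.7% in 48 h library 2 and was the larger in 2 of 9. For miR-106b the mean 5p share was 37.0% ± 12.5 (SD, n = 3) in untreated libraries, 14.4% ± 17.6 at 24 h and 38.7% ± 12.8 at 48 h, and the groups overlapped.

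**Figure D3:**
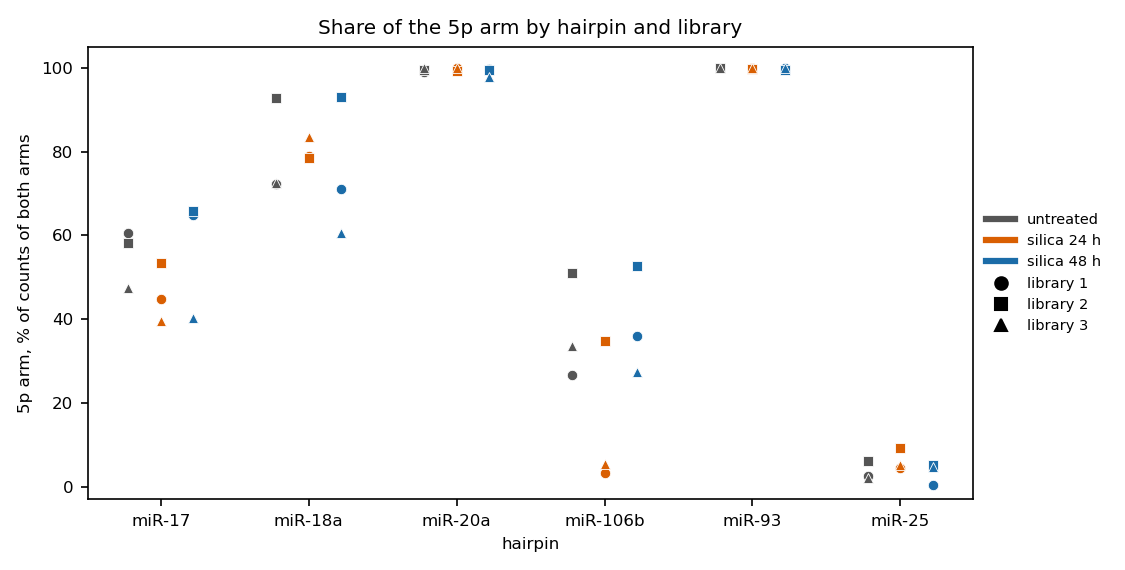
Percent of the counts of both arms that fall on the 5p arm, for 6 of the hairpins in each library (colours for groups, symbols for libraries 1, 2 and 3). miR-93 and miR-20a lie near 100% and miR-25 at 0.325% to 9.12%, while miR-17 spans 39.6% to 65.9% and miR-106b spans 3.13% to 52.7%.

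Silica for 24 h was compared with no treatment to ask which vesicle miRNAs differ early. No member passed the test. By edgeR's quasi-likelihood test, with p adjusted by the Benjamini-Hochberg method over the 453 tested miRNAs, 0% of all miRNAs were called at an adjusted p of 0.05, with 46 at an unadjusted p under 0.05, of which 1 was a member. Of the members 9 of 10 had a log2 fold change below 0, beside 53.4% of all tested miRNAs, and the median was -1.65 beside -0.07. The member with the lowest p was miR-19a-3p, with 34.9 ± 24.9 CPM (SD, n = 3) in untreated libraries and 4.46 ± 2.13 at 24 h. Its log2 fold change was -2.96 ± 1.08 (SE; adjusted p = 0.437, edgeR), 7.78 times lower at 24 h, and -2.32 without untreated library 2. miR-106b-5p followed at -2.50 ± 1.23, miR-18a-5p at -1.95 ± 1.18, miR-19b-3p at -1.86 ± 1.10, miR-20a-5p at -1.83 ± 1.01 and miR-17-5p at -1.48 ± 0.88, all as log2 fold changes with SE. miR-17-3p was at -0.93 ± 0.75, miR-25-3p at -0.52 ± 0.37 and miR-93-5p at -0.37 ± 0.36. miR-92a-3p was the only member above 0, at 0.72 ± 0.40, from 23957 ± 1863 to 39399 ± 16791 CPM (SD, n = 3). Adjusted p-values of the other 9 members ran from 0.543 to 0.728 in edgeR.

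Most of these differences were smaller without untreated library 2. Without it the log2 fold change was -0.05 for miR-17-5p, -0.08 for miR-19b-3p, -0.11 for miR-20a-5p and -0.58 for miR-106b-5p, and above 0 for miR-18a-5p (0.63) and miR-17-3p (0.26). The median over the members was then -0.08, with 7 of 10 below 0, beside 0.16 over all tested miRNAs. miR-25-3p stood at -0.62 and miR-92a-3p at 0.75 without that library. Leaving out 24 h library 2 instead moved miR-106b-5p to -4.80, with 6 and 4 counts in the remaining 24 h libraries. Every 24 h library lay below every untreated one for miR-19a-3p and miR-25-3p, 2 of 10 members, beside 6.18% of all tested miRNAs, and above for none, beside 10.4%. The replicate number was also used as a block. These groups passed the check described with the processing, which cannot establish that the numbers pair them. With the block edgeR called 3 of the 453 miRNAs and none of the members, and the median over the members was -0.72. Within all 3 same-numbered pairs the 24 h library was the lower for 6 of 10 members (miR-17-5p, miR-19a-3p, miR-19b-3p, miR-20a-5p, miR-106b-5p and miR-25-3p), beside 18.5% of all tested miRNAs, and the higher for none, beside 24.3%. With the block miR-106b-5p was at -2.59 ± 0.53 (SE; adjusted p = 0.0571, edgeR) and miR-19a-3p at -2.79 ± 0.72 (adjusted p = 0.0965). Over all 20 alternatives their adjusted p ran up to 0.992 and 0.900 in turn. The count within pairs was made after the values were seen. Apart from miR-25-3p, its 6 members are among those that ran together across the libraries, so they are not separate observations. DESeq2 called 4 miRNAs, none of them a member.

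**Figure D4:**
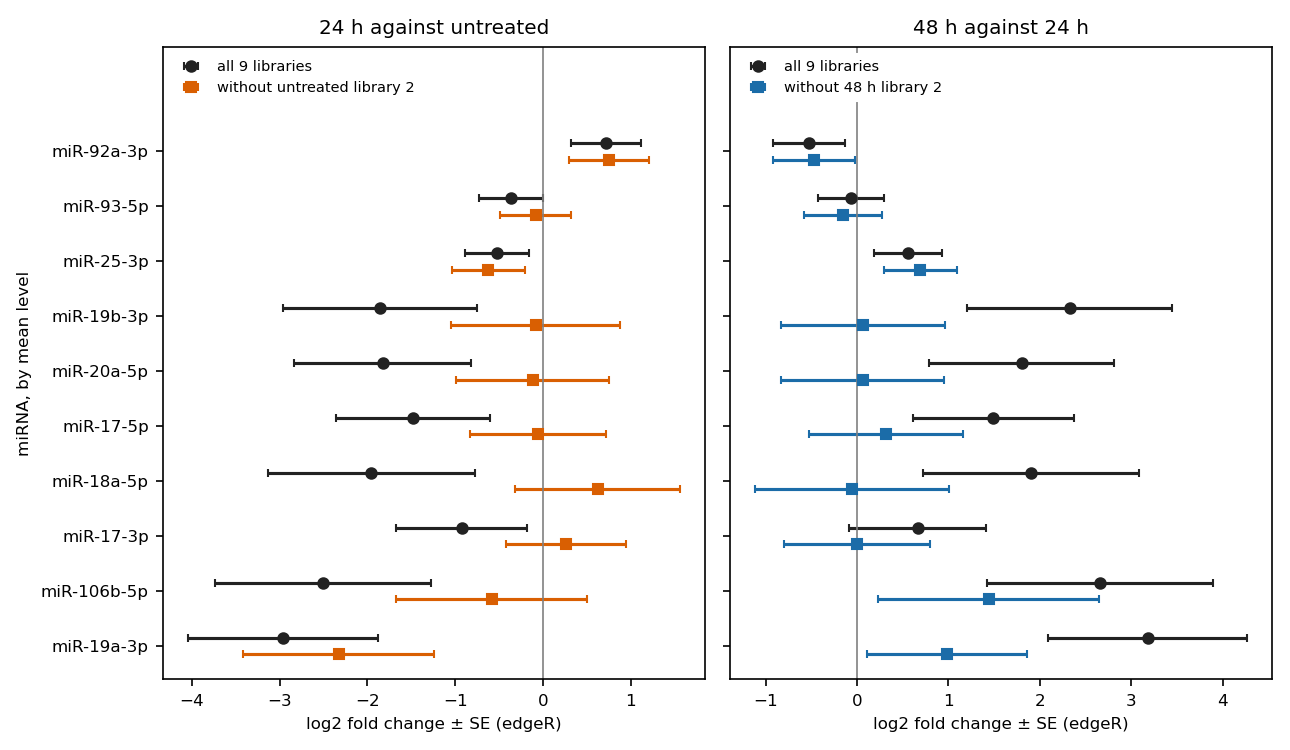
Log2 fold change of each member (edgeR, with bars of 1 standard error) for 24 h against untreated (left) and 48 h against 24 h (right), with all 9 libraries as circles and without untreated library 2 or 48 h library 2 as squares. With all libraries, 9 of 10 members lie below 0 at 24 h and 8 of 10 above 0 for 48 h against 24 h, and without those libraries the medians are -0.08 and 0.06.

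Silica for 48 h was compared with no treatment to ask which differences are present later. The members lay near 0, with a median log2 fold change of 0.02 beside 0.03 over all tested miRNAs and values from -0.43 (miR-93-5p) to 0.47 (miR-19b-3p). Of the members 4 of 10 were below 0, beside 47.5% of all tested miRNAs, and this count ranged from 2 to 6 with other scalings. In edgeR's quasi-likelihood test 0% of the 453 miRNAs were called, with 4 at an unadjusted p under 0.05 and none of these a member, and DESeq2 called 1 miRNA that was no member. The adjusted p was 0.997 for each member. For none of the members did every 48 h library lie below every untreated one (1.55% of all tested miRNAs) or above (2.21%). SEs were 0.36 to 0.39 for the 3 abundant members and 0.74 to 1.16 for the others, so only larger differences could have been seen for the latter. The value depended on single libraries in both directions, with a median over the members of 1.17 without untreated library 2 and -1.16 without 48 h library 2.

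The 2 silica times were compared directly to ask whether the members differ between them. This comparison uses the same 24 h libraries as the first, so its values are not separate support for them. No member passed the test in the fit without a block and with the filter on low counts. edgeR's quasi-likelihood test called 0% of the 453 miRNAs, with 44 at an unadjusted p under 0.05, of which 1 was a member, and DESeq2 called 6 miRNAs, none a member. Only 2 members were below 0, beside 45.9% of all tested miRNAs, and the median was 1.65 beside 0.14. Those were miR-92a-3p, at -0.52 ± 0.39 (SE), and miR-93-5p, at -0.07 ± 0.36, which was at 0.19 with total counted reads as library size. miR-19a-3p had a log2 fold change of 3.18 ± 1.09 (adjusted p = 0.405, edgeR), from 4.46 ± 2.13 to 40.4 ± 54.6 CPM (SD, n = 3). miR-106b-5p was at 2.65 ± 1.24 and miR-19b-3p at 2.33 ± 1.12, both with an adjusted p of 0.458 in edgeR. miR-25-3p, far more abundant, was at 0.56 ± 0.37.

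Every 48 h library lay above every 24 h library for miR-19a-3p, miR-106b-5p and miR-25-3p, 3 of 10 members, beside 10.4% of all tested miRNAs, and below for none, beside 10.4%. Without 48 h library 2 the log2 fold change was 0.98 for miR-19a-3p, 1.44 for miR-106b-5p, 0.06 for miR-19b-3p and -0.05 for miR-18a-5p, while miR-25-3p was at 0.69. Without 24 h library 2, miR-106b-5p was at 4.88. The median over the members was 0.06 without 48 h library 2, beside -0.14 over all tested miRNAs. It was 1.96 without 24 h library 2, beside 0.17. With no filter on low counts, which raises the number of miRNAs tested to 1101, edgeR called miR-19b-3p (2.53 ± 0.61, adjusted p = 0.00731) and miR-19a-3p (3.38 ± 0.92, adjusted p = 0.0220). With the filter their SEs were larger, at 1.12 and 1.09. For miR-19b-3p the groups overlapped, with 570 CPM in 48 h library 3 and 913 in 24 h library 2. Over the 20 alternatives the adjusted p in edgeR and the other tools ran up to 0.99983 for miR-19b-3p and 0.937 for miR-19a-3p.

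The members' differences ran with their base composition. Across the 10 members, the log2 fold change at 24 h against untreated had r = 0.90 with the percent of G and C in the mature sequence, and that of 48 h against 24 h had r = -0.93. Across the 402 tested miRNAs with a sequence in the RefSeq table, r was 0.21 and -0.25. For 48 h against untreated r was -0.50 across the members and -0.09 across the 402, and across the members it turned to 0.83 without 48 h library 2 and to 0.41 without that library and untreated library 2. Without untreated library 2 the value at 24 h across the members was 0.62, and without 48 h library 2 that of 48 h against 24 h was -0.50. The difference of library 2 from the others of its group had r with G and C of -0.57 among untreated libraries, -0.55 at 24 h and -0.85 at 48 h across the members, beside -0.09, -0.11 and -0.11 across the 402. With mean log2 CPM, that difference had r of -0.73, -0.76 and -0.76 across the members, beside -0.10, -0.09 and -0.11 over all tested miRNAs. These are descriptions across miRNAs that share libraries and seeds, the comparisons share the 24 h group or the other groups, and the 3 most abundant members have 50% or more G and C, as has the scarcer miR-17-3p. The part of base composition or of level in the differences was not tested.

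**Figure D5:**
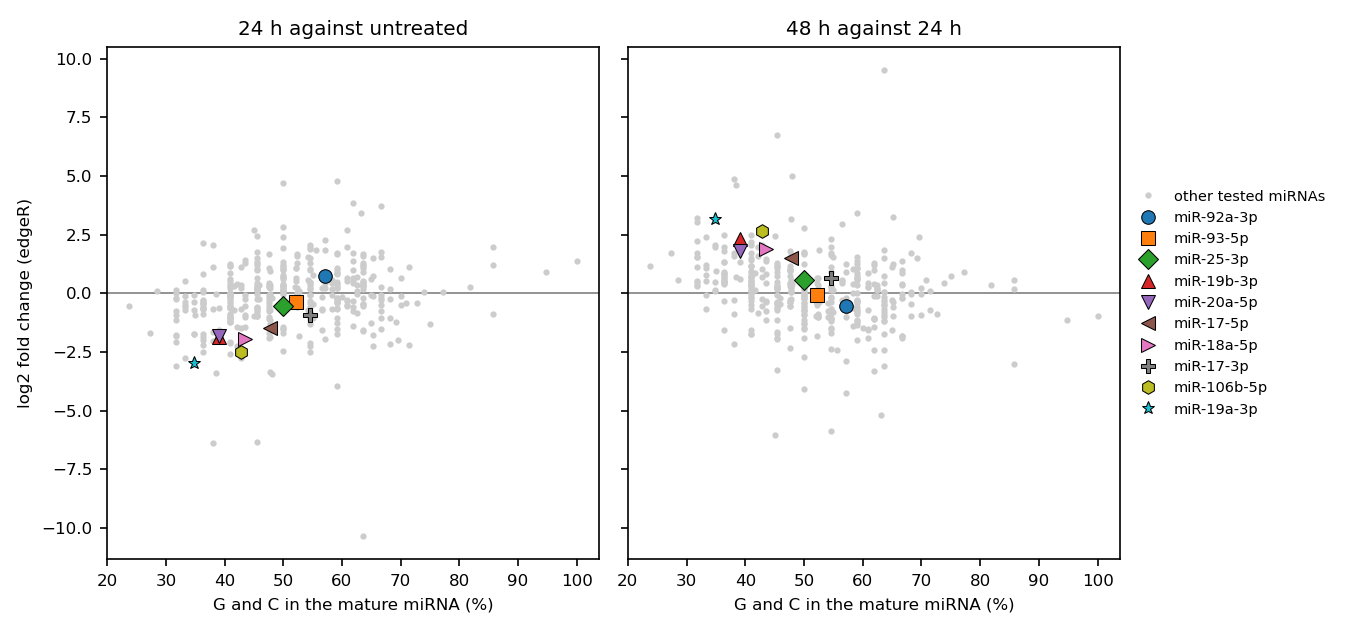
Log2 fold change (edgeR) against the percent of G and C in the mature miRNA, for 24 h against untreated and 48 h against 24 h. Grey points are the other tested miRNAs with a RefSeq sequence and coloured marks the 10 members, whose values run from miR-19a-3p (34.8%, -2.96 and 3.18) to miR-92a-3p (57.1%, 0.72 and -0.52).

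Of 21 related miRNAs (the other arms of the same hairpins, the products of the X-linked cluster and further miRNAs with the AUUGCAC seed), 14 were counted and 8 passed the filter. None of the 8 was called by edgeR in any comparison. At 24 h 2 were above and 6 below 0 (median log2 fold change -0.34), at 48 h against untreated 6 above and 2 below (0.17), and at 48 h against 24 h 6 above and 2 below (0.91). miR-25-5p, the passenger arm of miR-25, averaged 406 CPM, with log2 fold changes of 0.49 ± 0.86 (SE) at 24 h and 0.15 ± 0.85 at 48 h against untreated. miR-32-5p, which has the miR-92a seed but comes from a hairpin of its own, averaged 101 CPM. It stood at 156 ± 110.0 CPM (SD, n = 3) in untreated libraries, 37.3 ± 13.3 at 24 h and 111 ± 67.7 at 48 h, and at 24 h its log2 fold change against untreated was -2.06 ± 0.76 (adjusted p = 0.437, edgeR).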

How the data were processed

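Per the file headers, each deposited table holds read counts of the small RNAs of 1 library, and these counts were used as deposited. Trim Galore, Bowtie, HTSeq and build mm10 are named in the submitters' processing notes, without versions. Rows of class mature were kept, and a miRNA absent from a table was taken as 0 counts. The members, the lists and the libraries left out together were chosen with earlier results of these data known.

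edgeR 4.0.16 in R 4.3.3 (filterByExpr with a minimum count of 10, which kept 453 of 1101 mature miRNAs and all 10 members, TMM factors 0.829 to 1.16, quasi-likelihood test, 1 fit over 9 libraries with 6 residual degrees of freedom) gave log2 fold changes, and p-values were adjusted by Benjamini-Hochberg and called under 0.05. The common dispersion had a square root of 0.756. Alternatives were other scalings, no filter, DESeq2 1.42.0, limma-voom (limma 3.58.1), fits of the 2 groups compared, a replicate block, and leaving out libraries.

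Whether replicate numbers pair the libraries was read from the correlation of same-numbered libraries' deviations from their group means, with 0.1 as the limit for every number. For numbers 1, 2 and 3 it was 0.136, 0.439 and 0.149 between 24 h and untreated libraries, 0.152, 0.636 and 0.315 between 48 h and untreated ones, and -0.068, 0.289 and 0.253 between both silica times. Every number passed the limit in the first and second of these only. Unlike numbers correlated too, at 0.160 for 24 h library 3 with untreated library 1 and 0.101 for 24 h library 1 with untreated library 3. For the 48 h libraries the same values were 0.360 and 0.026. The check therefore cannot tell whether numbers 1 and 3 pair the libraries. The labels state no pairing.

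Named were the 10 members, related miRNAs with a mean of at least 100 CPM, the 3 miRNAs most like miR-17-5p and the 3 most like miR-92a-3p, and markers from the lists.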

Additional observations from a re-analysis of the deposited data

How the results depend on the processing

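Across 20 alternatives, no member was called at 24 h or 48 h against untreated. At 48 h against 24 h, 2 were called with no filter on low counts and 1 with the replicate block. The latter was miR-106b-5p (3.23 ± 0.55, adjusted p = 0.0246 in edgeR, beside a range of 0.0246 to 0.937 over its alternatives). In that comparison the numbers did not pass the pairing check. All mature miRNAs called by edgeR, 0 in each comparison, became at 24 h 1 with upper-quartile factors, 7 with no filter, 4 with DESeq2, 1 with only the 2 groups compared and 3 with the block. At 48 h against untreated they became 1 with no filter and 1 with DESeq2, and at 48 h against 24 h 16 with no filter, 6 with DESeq2 and 3 with the block. Leaving out 1 library gave 0 to 1 at 24 h and 0 to 1 at 48 h against 24 h.

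The median over the members at 24 h ran from -2.18 to -0.082 when 1 library was left out, and was -0.10 without untreated library 2 and 48 h library 2 and -0.10 without these and 24 h library 3. At 48 h against 24 h it ran from 0.062 to 2.19, and was 0.064 and 0.042 in those cases and 0.80 with the block. With upper-quartile factors the median of all tested miRNAs moved by 0.12 at 24 h and by -0.12 at 48 h against 24 h, and with total counted reads as library size by -0.14, 0.11 and 0.23 in the 3 comparisons in the order above. The number of members below 0 stayed at 9 at 24 h under every scaling.

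Log2 fold changes changed sign as follows. Without the 2 libraries, miR-17-3p was at 0.25 and miR-18a-5p at 0.60 at 24 h. At 48 h against untreated miR-17-3p was at 0.25, miR-18a-5p at 0.55, miR-19a-3p at -1.35 and miR-19b-3p at -0.034, and at 48 h against 24 h miR-17-3p was at -0.0017 and miR-18a-5p at -0.050. Without the 3 libraries, miR-17-5p was at 0.10, miR-17-3p at 0.26 and miR-18a-5p at 0.62 at 24 h. At 48 h against untreated these were 0.24 (miR-17-3p), 0.55 (miR-18a-5p), -1.35 (miR-19a-3p) and -0.035 (miR-19b-3p), and at 48 h against 24 h -0.012 (miR-17-3p) and -0.066 (miR-18a-5p). At 48 h against untreated, miR-18a-5p and miR-20a-5p were at 0.043 and 0.040 with DESeq2, 0.043 and 0.040 with its size factors, 0.10 and 0.11 with no filter, 0.20 and 0.22 with total counted reads and 0.039 and 0.0072 with upper-quartile factors. limma-voom gave 0.057 for miR-17-3p, 0.35 for miR-18a-5p and -0.31 for miR-19a-3p, and the replicate block 0.21 for miR-18a-5p and -0.19 for miR-19a-3p. miR-17-5p and miR-25-3p were at -0.047 and -0.027 with no factors and at -0.068 and -0.0048 with only the 2 groups. miR-93-5p at 48 h against 24 h was at 0.060 with no filter, 0.011 with only the 2 groups and 0.19 with total counted reads. The cause of these changes was not tested.

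With 1 library left out in turn, values at 48 h against untreated ran from -1.21 to 1.42 for miR-17-5p, -0.97 to 0.91 for miR-17-3p, -2.07 to 2.52 for miR-18a-5p, -2.01 to 0.84 for miR-19a-3p, -1.85 to 2.24 for miR-19b-3p, -1.82 to 1.67 for miR-20a-5p, -0.091 to 0.37 for miR-92a-3p, -1.11 to 2.04 for miR-106b-5p and -0.26 to 0.17 for miR-25-3p. At 24 h they ran from -1.47 to 0.26 for miR-17-3p and -2.57 to 0.63 for miR-18a-5p, and at 48 h against 24 h from -0.052 to 2.52 for miR-18a-5p and -0.16 to 0.034 for miR-93-5p. Depth limits miR-19a-3p and miR-106b-5p, which had 4 to 10 counts in 24 h libraries 1 and 3.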
